A study of Artemisia annua with 12 samples.

Results

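Before supplementary UV-B, 97 of the 63226 genes listed for leaves of Artemisia annua (0.153%) had a mean normalised expression value above 1000 over the 3 libraries of the 0 h harvest. These 97 genes were chosen by that mean alone, and they held 43.7% ± 0.110 (SD, n = 3) of all listed values at 0 h. A. annua is grown as the source of artemisinin, an antimalarial drug. All libraries came from wild-type plants of the high-artemisinin cultivar Huhao 1, raised in a greenhouse at 23 ± 2 °C with 16 h of light and 8 h of darkness per day. At an age of 6 weeks the seedlings received narrowband UV-B of 1.5 μmol m-2 s-1 in addition to the growth light, and their youngest expanded leaves were harvested after 0 h (UV0), 2 h (UV2), 4 h (UV4) or 6 h (UV6). Each harvest comprised 3 libraries, called biological repeats by the labels, and each library pooled leaves of 3 seedlings. The labels name no seedlings harvested at these later times without UV-B, so the length of exposure and the time of day cannot be told apart in any value given here.

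In green leaves, a small set of nuclear genes usually supplies much of the messenger RNA, among them those for the small subunit of Rubisco, which fixes carbon dioxide, and for the chlorophyll-binding proteins of the light-harvesting antennae. Plants perceive UV-B through the photoreceptor UVR8, and work in Arabidopsis has shown that UV-B alters transcripts of photosynthesis and of flavonoid sunscreen synthesis. The amount of a transcript depends on both its synthesis and its decay. The table lists identifiers without gene names and no annotation was used here, so which of these roles the 97 genes have is not known, and the leaf origin of the RNA was not checked against marker genes. Genes are therefore called by their rank in 0 h mean, with rank 1 the highest, and identifiers are given only for the 2 genes with the largest and the 2 with the smallest ratio of 6 h mean to 0 h mean.

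The table names no unit, and whether its values are per gene length is not stated, so ranks and shares hold on the deposited scale only. Its library totals were nearly equal, so a value describes a transcript's part of that total and not its amount per cell. In whole leaves, fewer cells of a type and less RNA per cell cannot be told apart. The totals lay between 851404 and 868133, and the read depth is unknown. The 97 genes repeated closely within a harvest, with median coefficients of variation of 1.39%, 4.03%, 2.11% and 1.94% at 0, 2, 4 and 6 h. The 2 h harvest was the least even, and its replicate 1 the farthest from the others: 27 of the 97 genes were at least 10% below the mean of the other libraries of that harvest and 6 at least 10% above it, so that 33 genes departed that far in either direction. In the same harvest replicate 2 departed that far for 8 genes and replicate 3 for 21, and replicate 1 did so for 3 genes at 0 h, 4 at 4 h and 6 at 6 h. The summed share difference between 4 and 2 h and the total counts of called genes are also given without that library. Counts at a minimum fold, counts split by the direction at 2 h and shares of groups of ranks are given with all libraries only.

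The summed share of the 97 genes was 43.6%, 43.7% and 43.7% of the total in the 3 libraries at 0 h, 33.1%, 33.7% and 33.8% at 2 h, 31.4%, 31.1% and 30.7% at 4 h, and 30.9% to 31.5% at 6 h. Every exposed library was thus below every 0 h library, and the 4 h and 6 h libraries were below the 2 h libraries. As the genes were picked for high values at 0 h, the differences from 0 h, which were -10.1 percentage points at 2 h, -12.6 at 4 h and -12.5 at 6 h, are a description without a test. Among the exposed harvests the share was 31.1% ± 0.364 at 4 h, against 33.5% ± 0.374 at 2 h (SD, n = 3 each), a difference of -2.48 points (exact two-sided permutation test, p = 0.1, the smallest that 3 libraries against 3 allow). Without replicate 1 of the 2 h harvest the difference was -2.69 points. At 6 h the share was 31.1% ± 0.323, and its difference from 4 h, 0.0856 points, was within the spread of the libraries (exact two-sided permutation test, p = 0.8).

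**Figure D1:**
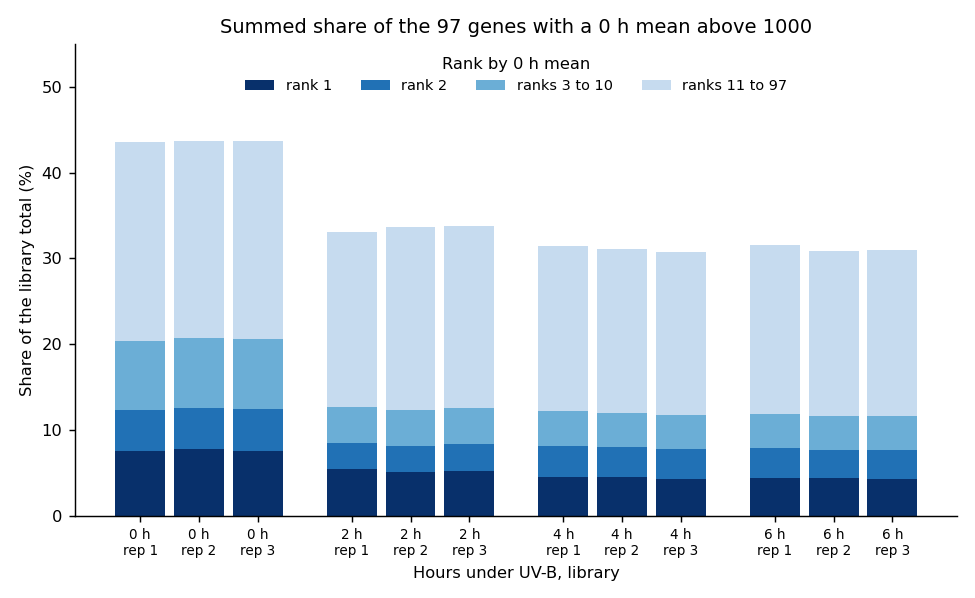
Stacked bars give, for each of the 12 libraries, the share of the library total (%, vertical axis) held by the gene of rank 1, the gene of rank 2, ranks 3 to 10 and ranks 11 to 97. The 3 libraries at 0 h reach 43.6% to 43.7%, and those at 6 h 30.9% to 31.5%; the bands of ranks 1 to 10 shrink more than the band of ranks 11 to 97.

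Ranks 1 to 10 made up most of the net difference between 6 h and 0 h, but not of that between 4 h and 2 h. Ranks 1 to 10 held 20.6% ± 0.166, 12.5% ± 0.193, 11.95% ± 0.257 and 11.7% ± 0.143 of the total at 0, 2, 4 and 6 h (SD, n = 3 each). Ranks 11 to 97 held 23.1% ± 0.0799, 20.99% ± 0.523, 19.1% ± 0.108 and 19.5% ± 0.181 at these harvests. Between 6 h and 0 h, the ranks 1, 3 and 2 lost 3.21, 1.99 and 1.45 points, together 53.0% of the net difference, and ranks 1 to 10 made up 71.1% of it. The net difference sets the gains of some genes against the losses of others. At 0 h, ranks 1 to 10 already held 47.1% of the summed values of the 97 genes. Ranks 1, 3 and 2 held 17.4%, 4.55% and 11.1% of that sum. In the comparison of 4 h with 2 h, ranks 1 to 10 differed by -0.598 points and ranks 11 to 97 by -1.88 points (exact two-sided permutation test, p = 0.1 for each, the smallest possible). The 80 genes with a lower mean at 6 h than at 0 h lost 15.5 points in all, and the 17 with a higher mean gained 3.01 points.

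The size of this loss depends on the harvest used for choosing. The 87 genes with a mean above 1000 at 6 h held 34.6% of the total at 6 h and 38.4% at 0 h, and the 89 genes with a mean above 1000 over all 12 libraries held 34.5% at 6 h and 41.3% at 0 h. Under each of these choices the share was lower at 6 h, with a difference of -3.76 points for the genes chosen at 6 h and of -12.5 points for those chosen at 0 h.

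The most abundant transcript, rank 1, was listed at 64973, 66950 and 64964 at 0 h, at 46611, 43208 and 44812 at 2 h, at 38969, 38401 and 36960 at 4 h, and at 37925, 37445 and 36873 at 6 h. It kept the highest mean at every harvest while its mean stood at 57.0% of the 0 h level at 6 h. Between 2 and 4 h it fell by 0.24 ± 0.0273 (SE) in log2(value + 1), with an adjusted p of 3.07e-05 from limma over all 25841 tested genes. Rank 2 was at 41197, 41936 and 42391 at 0 h, at 25866, 26159 and 27100 at 2 h, at 31272, 30105 and 29376 at 4 h, and at 29611, 28569 and 28590 at 6 h. It took the opposite direction to rank 1 after 2 h and rose by 0.20 ± 0.0250 (log2, SE; limma adjusted p = 5.65e-05). With median-ratio scaling, which divides each library by its median ratio over genes, this change was 0.10 and no longer called (limma adjusted p = 0.0538). Rank 2 remained below its 0 h values in all exposed libraries on both scales.

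The gene of rank 3, CTI12_AA498370, had the lowest value of the 97 genes at 4 and 6 h. Its values were 17191, 17570 and 16856 at 0 h, 4916, 4681 and 4874 at 2 h, 7.95, 8.77 and 4.11 at 4 h, and 8.01, 6.94 and 4.21 at 6 h. The 6 h mean was 2694-fold below the 0 h mean, and at 6 h the gene held place 12889 among all genes. The drop from 2 to 4 h, 695-fold in mean value, measured -9.30 ± 0.243 in log2(value + 1), with limma adjusted p = 1.02e-09, and the log2 difference between 6 and 4 h was -0.09 ± 0.243 (limma adjusted p = 0.888). No other of the 97 genes came below a value of 200 at any harvest mean.

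Rank 4 was also low from 2 h on, with means of 9771 ± 151, 2858 ± 28.7, 1958 ± 58.1 and 1854 ± 14.7 at 0, 2, 4 and 6 h (SD, n = 3 each). It fell by 0.55 from 2 to 4 h (log2; limma adjusted p = 4.69e-09). Rank 5, whose means were 8577 ± 119, 5878 ± 128, 8825 ± 84.0 and 8783 ± 23.1 at these harvests, was low at 2 h only. On the deposited scale its 4 h libraries all lay above those at 0 h, after a 1.50-fold rise from 2 to 4 h (log2 change 0.59 ± 0.0170 SE, limma adjusted p = 5.02e-10). With median-ratio scaling the rise was still called, but the 4 h libraries were all below those at 0 h, with a mean at 86.3% of the 0 h mean. All ranks 1 to 10 had every 2 h library below every 0 h library (23% of all tested genes did), with means at 28.0% to 80.9% of the 0 h level. On the deposited scale rank 5 was the only one of them above its 0 h mean at 4 h or at 6 h. From 2 to 4 h, 5 of these 10 genes were called higher (ranks 2, 5, 8, 9 and 10) and the other 5 lower, where 31.1% and 19.5% of all tested genes were. With median-ratio scaling, ranks 5, 9 and 10 were higher, the same 5 genes lower, rank 2 was not called, and rank 8 turned to -0.03 without a call, against 0.07 on the deposited scale (log2).

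Over all 97 genes, the direction against 0 h was mostly downward. At 2 h, every library was below every 0 h library for 73 genes and above for 17. At 4 h it was 79 and 14 genes, and at 6 h 78 and 16. Among all 25841 tested genes, 23% were lower and 39.3% higher in this sense at 2 h, 20.5% and 45.9% at 4 h, and 20.8% and 44.6% at 6 h; since the 0 h values chose the members, nothing is read from the contrast. The median gene stood at 65.0%, 69.8% and 68.4% of its 0 h mean at 2, 4 and 6 h, with quartiles of 55.9% and 84.5% at 6 h. Means were at least 2-fold below 0 h for 20 genes at 2 h, 12 at 4 h and 14 at 6 h (8.34%, 8.38% and 7.98% of all tested genes), and at least 2-fold above for 6, 4 and 4 genes (17.6%, 19.1% and 19% of all tested genes). In all, 70 genes were below 0 h without overlap at each exposed harvest (11.6% of all tested genes) and 13 were above it at each (26.4%).

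The median over all genes lay on the other side of 0. The 97 genes were chosen for high 0 h values, and the library totals were nearly equal. Any share that these genes lost had to lie with other genes, so nothing is read from this contrast either. In log2(value + 1), the median change against 0 h was -0.62, -0.52 and -0.55 for the 97 genes at 2, 4 and 6 h, and 0.13, 0.21 and 0.20 for all tested genes. Median-ratio scaling, which removes that common shift, left 9 genes above 0 h without overlap at 4 h and 10 at 6 h, in place of 14 and 16. Scaling to the sum of the non-members left 8 and 8. All tested genes were not counted in this way at 4 and 6 h. At 2 h, median-ratio scaling left 8052 of them above 0 h in place of 10146, and 13 of the 97 in place of 17. The lower counts are therefore not read as a trait of the 97 genes.

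**Figure D2:**
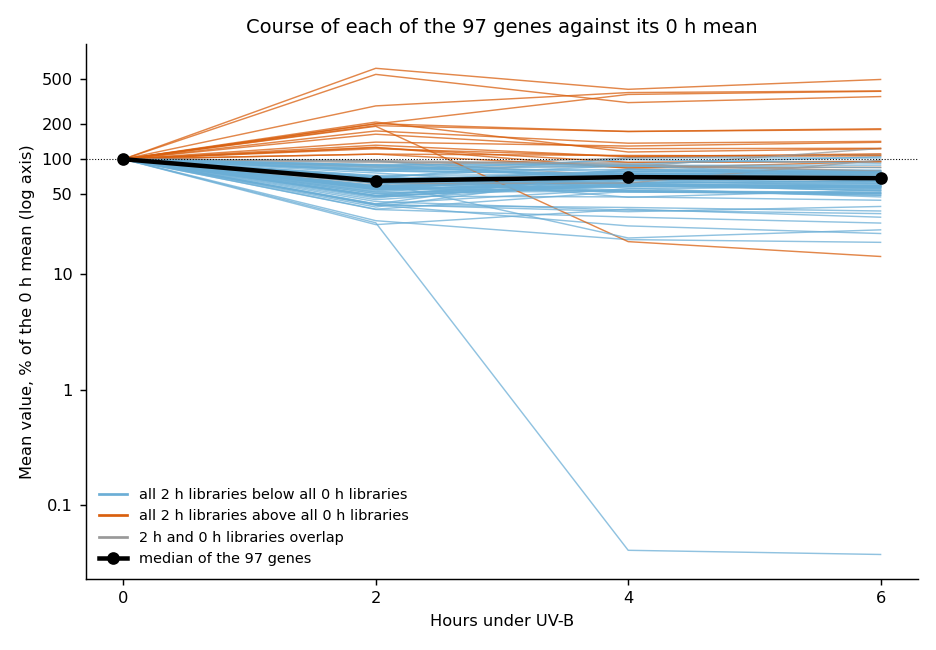
Each thin line is 1 of the 97 genes, with its harvest mean as a percentage of its 0 h mean (log axis) against hours under UV-B; blue, orange and grey mark genes whose 2 h libraries were all below, all above or overlapping the 0 h libraries, and the black line is the median gene at 65.0%, 69.8% and 68.4%. The lowest line is CTI12_AA498370, and the orange line that ends at 14.3% is CTI12_AA541570.

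A small group of abundant genes was higher after exposure. CTI12_AA081750, rank 78, was at 1279, 1263 and 1288 at 0 h, 7173, 8084 and 8286 at 2 h, 5202, 5094 and 5177 at 4 h, and 6401, 6180 and 6251 at 6 h. All exposed libraries lay far above the 0 h libraries, and the 6 h mean was 4.92-fold higher. It fell between 2 and 4 h (log2 change -0.60 ± 0.0424 SE, limma adjusted p = 5.7e-07) and rose again between 4 and 6 h (0.28 ± 0.0424, limma adjusted p = 0.00159). CTI12_AA334400, rank 93, was at 1010, 1069 and 1042 at 0 h, 2894, 2966 and 3188 at 2 h, 4057, 3938 and 3813 at 4 h, and 4030, 3992 and 4176 at 6 h. It went on rising from 2 to 4 h (log2 change 0.38 ± 0.0373 SE, limma adjusted p = 6.8e-06), and its 6 h mean was 3.91-fold above 0 h.

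Rank 81 had a course like that of CTI12_AA334400, with means of 1214 ± 26.1, 2455 ± 183, 4427 ± 230 and 4712 ± 67.5 at 0, 2, 4 and 6 h (SD, n = 3 each) and a 1.80-fold rise from 2 to 4 h (limma adjusted p = 1.56e-07). Rank 69 resembled CTI12_AA081750, with means of 1441 ± 16.1, 7843 ± 356, 4460 ± 51.6 and 5034 ± 53.9. Rank 16 peaked at 2 h, at 10124 ± 40.8, against 4824 ± 70.0 at 0 h, and fell to 5567 ± 136 at 4 h, which was 115% of the 0 h mean on the deposited scale and 96.8% with median-ratio scaling (log2 change from 2 to 4 h -0.86 ± 0.0245 SE, limma adjusted p = 4.39e-10). These courses were picked out after their values were seen. The 5 genes that gained most share by 6 h were ranks 78, 69, 81, 93 and 28, with 2.13 points together.

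CTI12_AA541570, rank 66, reversed. It was listed at 1522, 1519 and 1497 at 0 h, 2782, 2923 and 3046 at 2 h, 294, 297 and 283 at 4 h, and 231, 210 and 209 at 6 h. The 2 h libraries were all above and the later libraries all below those at 0 h. From 2 to 4 h the mean fell 10.02-fold (log2 change -3.32 ± 0.0418 SE, limma adjusted p = 1.1e-12), and it fell again from 4 to 6 h (-0.43 ± 0.0418, limma adjusted p = 7.56e-05), to a 6 h mean 6.99-fold below 0 h.

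The choice of genes did not use the exposed harvests, and these were compared in a single limma model over all genes. Calls were made where the adjusted p (Benjamini-Hochberg) was under 0.05. Between 4 and 2 h, 35 of the 97 genes were called higher and 41 lower, and 21 were not called. Among all tested genes, 31.1% were called higher and 19.5% lower, 50.6% in all. Without replicate 1 of the 2 h harvest, 36 were higher and 47 lower, and with median-ratio scaling 27 were higher and 49 lower. The calls over all tested genes moved the same way with that scaling. There 6403 genes were higher and 6129 lower, in place of 8031 and 5034 on the deposited scale. Most called changes were small: the median called gene was 1.25-fold higher or 1.23-fold lower. Called changes of at least 1.5-fold comprised 7 higher genes (ranks 85, 21, 81, 94, 77, 45 and 5) and 10 lower ones (ranks 3, 66, 91, 16, 69, 34, 84, 78, 39 and 17), where all tested genes gave 14.2% and 10.5%. The median log2 change was -0.01 for the 97 genes and 0.09 for all tested genes.

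The changes after 2 h were set beside the difference from 0 h at 2 h. Of the 73 genes below 0 h at 2 h, 33 rose between 2 and 4 h (45.2%), 25 fell further (34.2%) and 15 were not called. Of all 5946 tested genes below 0 h at 2 h, 49.3% rose and 12.6% fell further. With median-ratio scaling, 25 of 78 such genes among the 97 rose and 34 fell, beside 38.0% and 16.7% of all such genes. The 33 rising genes had a median of 69.7% of the 0 h mean at 4 h and of 54.4% at 2 h; 31 of them still had every 4 h library below every 0 h library, and 1 gene, rank 5, had a 4 h mean at or above its 0 h mean on the deposited scale. The steepest regain was that of rank 85, with means of 1144 ± 24.3, 468 ± 34.5 and 934 ± 22.2 at 0, 2 and 4 h (log2 change from 2 to 4 h 1.00 ± 0.0457 SE, limma adjusted p = 1.58e-08). The 25 genes that fell further had medians of 68.2% at 2 h, 55.9% at 4 h and 52.7% at 6 h, and rank 91 among them dropped 3.05-fold, to 215 ± 8.14 at 4 h, against 658 ± 92.0 at 2 h (limma adjusted p = 4.07e-08). Of the 17 genes above 0 h at 2 h, 14 fell between 2 and 4 h (82.4%), 2 rose (ranks 81 and 93) and 1 was not called. Of all 10146 tested genes above 0 h at 2 h, 32.5% fell and 24.6% rose. With median-ratio scaling, 11 of 13 such genes among the 97 fell and 2 rose, beside 41.3% and 19.7% of all such genes. The differences between the 97 genes and all genes in these shares were not tested. The grouping at 2 h and the change from 2 to 4 h share the 2 h libraries, so an error in these enters both.

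**Figure D3:**
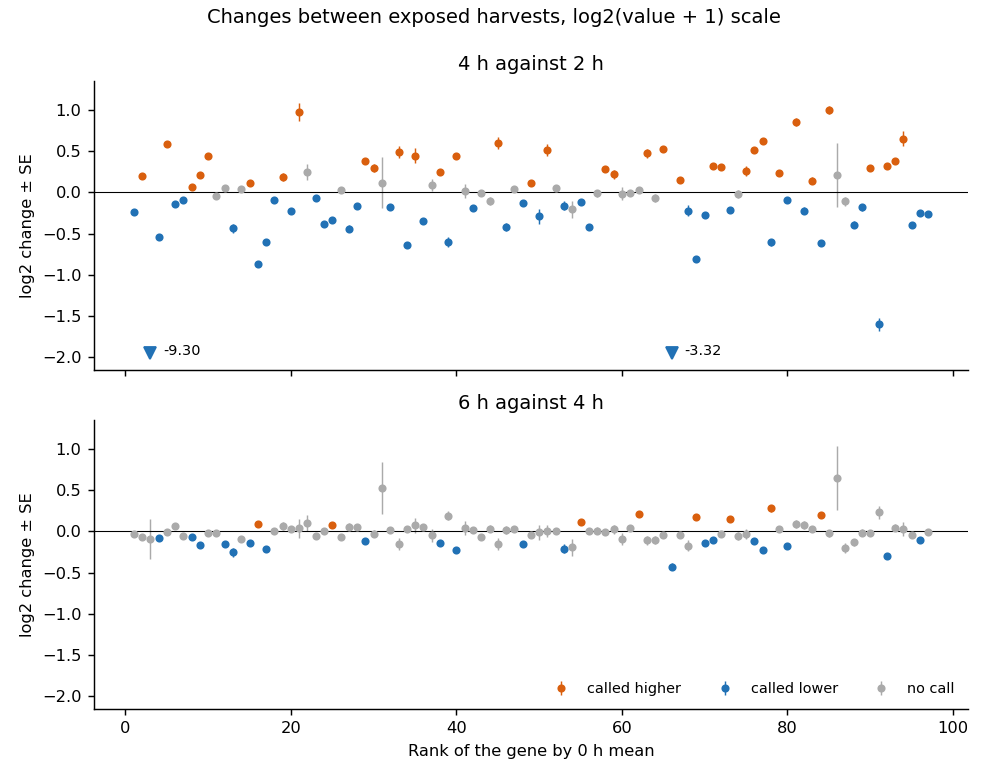
Each point is 1 of the 97 genes, placed by its rank in 0 h mean (horizontal axis), with its change ± SE in log2(value + 1) at 4 h against 2 h (upper panel) and at 6 h against 4 h (lower panel); orange, blue and grey mark genes called higher, called lower and not called. In the upper panel 35 genes are called higher and 41 lower, and triangles mark values below the axis (-9.30 and -3.32); in the lower panel the 8 and 20 called genes lie between -0.43 and 0.28.

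Between 6 and 4 h, 8 of the 97 genes were called higher and 20 lower, against 4.44% and 5.47% of all tested genes (9.91% in all), and 69 were not called. Of the 895 genes with a 0 h mean above 100 and up to 1000, 9.05% were called higher and 19.0% lower. These shares were near the 8.25% and 20.6% of the 97 genes, and the difference was not tested. None of the 28 calls reached 1.5-fold in the limma model. Over all tested genes, 1.59% were called higher and 1.05% lower at that size. The count of lower genes was 13 without replicate 1 of the 4 h harvest, 28 without replicate 1 of the 2 h harvest and 13 with median-ratio scaling. Fitting limma without trend or robust estimation gave 3 higher and 6 lower. Of the 35 genes that had risen between 2 and 4 h, 10 fell between 4 and 6 h (28.6%), none rose and 25 were not called, and of all tested genes that had risen 10.7% fell and 4.18% rose. Of the 41 that had fallen, 9 fell again (21.95%), 7 rose (17.1%) and 25 were not called, and of all tested genes that had fallen 4.73% fell again and 9.52% rose. With median-ratio scaling 5 of 27 risen genes then fell (18.5%), beside 11.3% of all such genes. Of 49 fallen genes, 6 fell again (12.2%) and 8 rose (16.3%), beside 4.10% and 9.61% of all such genes. Both steps share the 4 h libraries. An error in these pushes risen genes towards a fall and fallen genes towards a rise. The differences between the 97 genes and all genes in these shares were not tested. The further fallers included rank 17, with means of 4671 ± 25.4, 1868 ± 12.1, 1231 ± 26.1 and 1058 ± 3.94 at 0, 2, 4 and 6 h (log2 change from 4 to 6 h -0.22 ± 0.0174 SE, limma adjusted p = 1.69e-05).

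Over the whole span of 2 to 6 h, 33 genes were called higher and 43 lower (29.9% and 20% of all tested genes, 49.9% in all), and with median-ratio scaling 25 and 52. Without replicate 1 of the 2 h harvest 36 were higher and 46 lower. With all libraries, 4 higher and 9 lower genes changed at least 1.5-fold (13.5% and 10.3% of all tested genes). A moderated F test over the 3 exposed harvests called 84 of the 97 genes and 55% of all tested genes, and 88 of the 97 without that library. Of the 895 genes with a 0 h mean above 100 and up to 1000, 38.5% were called higher and 41.5% lower between 6 and 2 h. The shares of the 97 genes were 34.0% and 44.3%. Between 4 and 2 h, 41.2% of the 895 genes were called higher and 39.3% lower, beside 36.1% and 42.3% of the 97 genes. The differences between these shares were not tested, and the F test was not counted for the 895 genes.

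By 6 h, 66 of the 97 genes still had a mean above 1000, as did 67 at 2 h and 68 at 4 h, and 62 did so at every harvest. Of the 45 genes with a 0 h mean above 2000, 43 remained above 1000 at 6 h; the other two were rank 3 and rank 40, whose means at 0, 2, 4 and 6 h were 2423 ± 16.6, 655 ± 5.37, 891 ± 5.36 and 760 ± 6.99. Of ranks 1 to 10, 4 were still among the 10 genes of highest mean at 6 h. A further 21 genes, not among the 97, had a mean above 1000 at 6 h. Their summed share was 5.91% ± 0.0225 at 6 h, against 1.24% ± 0.0380 at 0 h (SD, n = 3 each), and 12 of them had a 0 h mean above 500. The highest of them held place 3 among all genes at 6 h, with a mean of 14665, against a 0 h mean of 204.

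**Figure D4:**
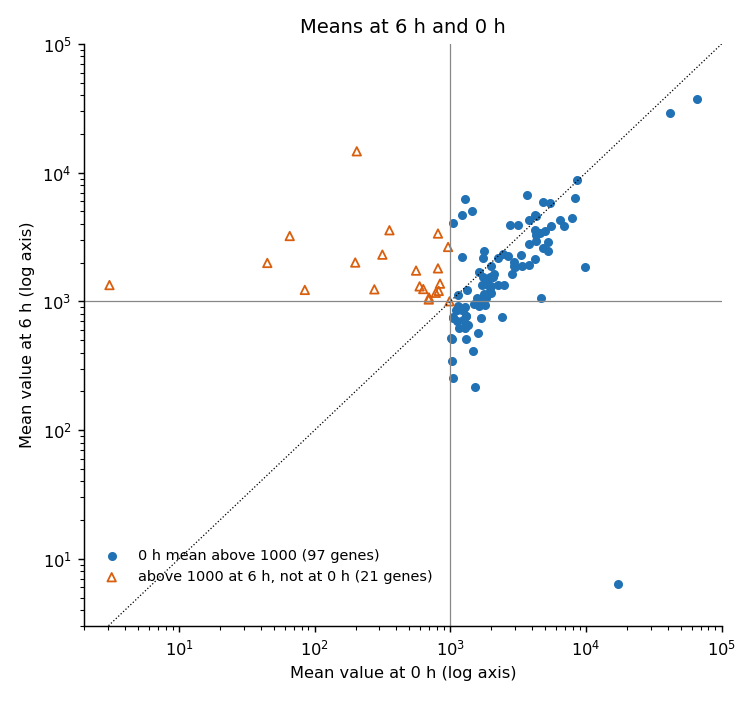
Mean values at 6 h (vertical) are plotted against mean values at 0 h (horizontal), both on log axes; filled circles are the 97 genes, open triangles the 21 genes above 1000 at 6 h and not at 0 h, the dotted line marks equal means and the grey lines 1000. Of the 97 circles, 80 lie below the dotted line and 66 above the horizontal grey line; the lowest circle is CTI12_AA498370, at 6.39.

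A pair of genes varied between libraries of the 0 h and of the 2 h harvest far more than the rest. Rank 31 was at 3657, 2302 and 3565 in replicates 1, 2 and 3 at 0 h, at 1965, 4326 and 1828 at 2 h, at 2591, 3155 and 2432 at 4 h, and at 4457, 3313 and 4029 at 6 h. Rank 86 was at 1323, 789 and 1300 at 0 h, at 433, 1242 and 414 at 2 h, at 706, 808 and 604 at 4 h, and at 1328, 891 and 1128 at 6 h. In both genes replicate 2 was the lowest library at 0 and 6 h and the highest at 2 and 4 h, and at 2 h it stood at 228% and 293% of the mean of the other libraries. Their ratio stayed between 2.74 and 4.54 over the 12 libraries. Neither gene was called in any comparison of exposed harvests, and the F test gave adjusted p = 0.193 for rank 31 and 0.174 for rank 86 (limma). Without these genes, the highest coefficient of variation among the 97 was 7.46% at 0 h and 18.0% at 2 h. At 4 and 6 h it was 35.8% and 30.7%, both from the low values of CTI12_AA498370.

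**Figure D5:**
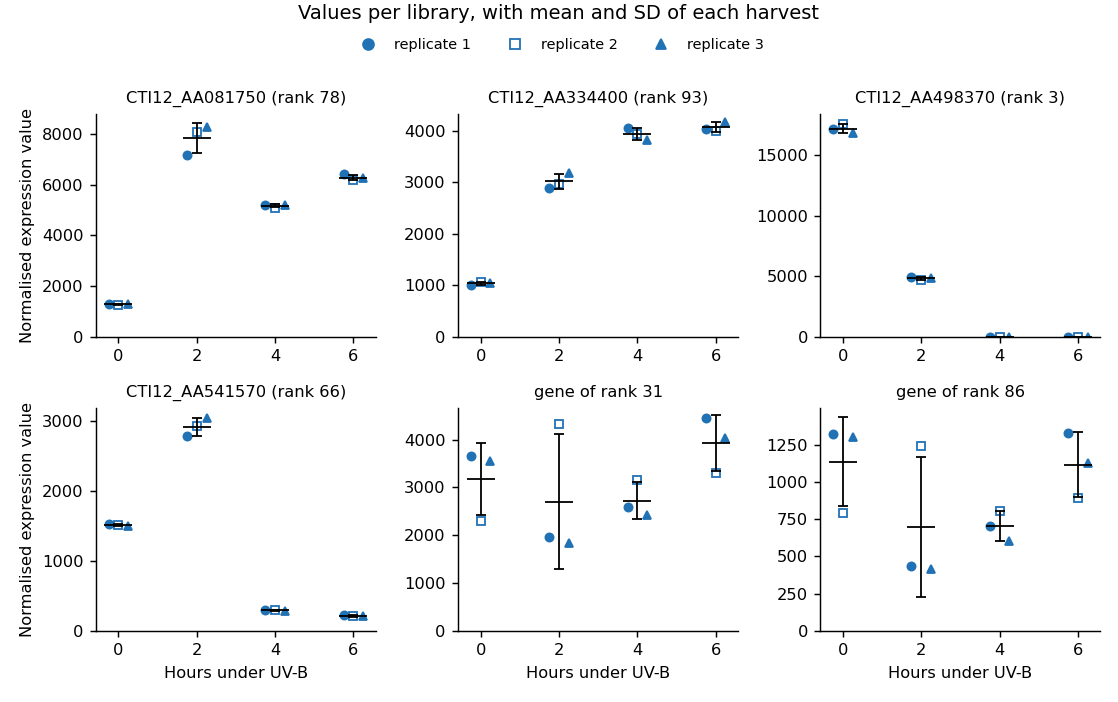
Normalised expression values per library (vertical axis, from 0) against hours under UV-B for the 4 genes named by identifier and for ranks 31 and 86; circles, open squares and triangles are replicates 1, 2 and 3, and black bars give the mean and SD of 3 libraries. For the 4 named genes the libraries of a harvest lie close together on these axes, whereas in ranks 31 and 86 replicate 2 lies below the others at 0 and 6 h and above them at 2 and 4 h. The spread among the low values of CTI12_AA498370 at 4 and 6 h does not show on its axis.

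The choice at 1000 was not at a gap in the values. The last genes inside it had 0 h means of 1021 and 1011, and the first outside it 988 and 987, with 7 genes within 10% above and 8 within 10% below. Rank 86 had 1 library below 1000 at 0 h.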

How the data were processed

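The authors deposited 1 table of normalised expression signal for 63226 gene identifiers in 12 leaf RNA libraries, with no unit in the header. Per the submitters' processing notes, HISAT2 2.1.0, Salmon and DESeq were used, with no role stated. The build of the genome is not given in the sources used. No read counts were available, so depth is unknown. Columns of no sample numbered 0, and no libraries held identical values. The 97 genes and all groups of genes were chosen with earlier results of these data known.

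Values were taken as log2(value + 1). Genes at 1 or more in at least 3 libraries (25841, including all 97) entered 1 model (limma 3.58.1, R 4.3.3, trend and robust estimation, all 12 libraries in 4 groups), and p-values were adjusted by Benjamini-Hochberg over all of them. The procedure was also run on simulated data, with changes of at least 2-fold. Most called changes here were smaller, so that run does not show how well such changes are found. Only contrasts among 2, 4 and 6 h were tested. Shares are of the summed listed values and were compared with exact permutation tests. Folds of single genes are ratios of means without a pseudocount. P-values set a difference against the spread between libraries. In limma that spread is estimated over the libraries of all 4 harvests and moderated over all tested genes. The uneven 2 h harvest is thus not judged by its own spread alone. Identifiers are printed for the 2 largest and 2 smallest ratios of 6 h to 0 h mean; the choice of the others, except ranks 1 to 10, followed sight of their values.

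Alternatives were pseudocounts, filtering, scaling, other limma settings, other thresholds, a replicate block and leaving out each library.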

Additional observations from a re-analysis of the deposited data

Results flagged for a closer look

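Whether a gene's difference from 0 h was itself different in a later exposed harvest was tested with limma (adjusted p under 0.05). These are the comparisons of exposed harvests given in the report. The test called 76 of the 97 genes at 4 h against 2 h (50.6% of all tested genes), 76 genes at 6 h against 2 h (49.9%) and 28 genes at 6 h against 4 h (9.91%). Among the genes named by identifier, the log2 difference between 4 and 2 h was -0.60 for CTI12_AA081750, 0.38 for CTI12_AA334400, -9.30 for CTI12_AA498370 and -3.32 for CTI12_AA541570. CTI12_AA541570 was above 0 h in all 3 libraries at 2 h and below it in all 3 libraries at 4 h.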

How the results depend on the processing

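Counts of genes called between exposed harvests stayed within 1.5 times under both pseudocounts (0.1 and 5), without the filter, with scaling to non-members, in models of 9 libraries or of the harvests compared, and with a replicate block. Same-numbered libraries did not deviate together over all tested genes (0 of 18 pairs correlated above 0.1). Whether the numbers pair libraries in some genes only was not tested. The block gave 35 higher and 40 lower at 4 against 2 h, and 8 higher and 17 lower at 6 against 4 h. At 6 against 2 h the block gave 33 higher and 43 lower. Between 6 and 4 h, median-ratio scaling gave 13 lower, and limma without trend or robust estimation 3 higher and 6 lower. A minimum fold of 1.5 gave 7 higher and 10 lower at 4 against 2 h, 0 and 0 at 6 against 4 h, and 4 and 9 at 6 against 2 h. Genes above 0 h without overlap numbered 9 at 4 h and 10 at 6 h with median-ratio scaling, and 8 and 8 with scaling to non-members. All tested genes were not counted in this way at these harvests.

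Thresholds of 500 and 2000 gave 181 and 45 genes. Their shares at 0, 2, 4 and 6 h were 50.3%, 40.3%, 37.3% and 37.5%, and 35.1%, 25.03%, 23.3% and 23.2%; with 2000 the difference between 6 and 4 h turned to -0.129 points (exact permutation p = 0.7). Genes above 1000 at 6 h held 38.4%, 35.1%, 34.0% and 34.6%, and those above 1000 over all libraries 41.3%, 36.1%, 34.1% and 34.5%. Without rank 1 the shares were 36.1%, 28.3%, 26.6% and 26.8%, and without ranks 1 to 10 they were 23.1%, 20.99%, 19.1% and 19.5%.

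Leaving out 1 library at a time gave 13 to 28 genes lower at 6 against 4 h (main value 20), with 13 without replicate 1 of 4 h and 28 without replicate 1 of 2 h. The share difference between 6 and 4 h ranged from -0.0979 to 0.267 points, and the log2 difference of CTI12_AA498370 between 6 and 4 h from -0.38 to 0.15; neither was a called change. Without depth, counting error cannot be given for any value.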

Other observations

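The share that the 97 genes no longer held at 6 h lay with genes of every lower abundance class. The 895 genes with a 0 h mean above 100 and up to 1000 held 27.1% ± 0.0493 at 6 h, against 24.9% ± 0.0718 at 0 h (SD, n = 3 each). The 7557 genes with a 0 h mean above 10 and up to 100 held 30.3% ± 0.180 at 6 h, against 24.3% ± 0.0476 at 0 h, and the 54677 genes of 10 or less held 11.4% ± 0.0998 at 6 h, against 7.09% ± 0.0406 at 0 h. Classes were set by the 0 h mean, so these differences are descriptions without a test.

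Of the 27 genes among the 97 in which replicate 1 of the 2 h harvest was at least 10% below the other libraries of that harvest, 10 were called higher at 4 h against 2 h, 7 lower and 10 not at all. None of the ranks 1 to 20 was among the 27; the first was rank 21, at 1296 in replicate 1 and at 1757 and 1842 in the others.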
